A study of Homo sapiens with 18 samples.

Results

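The genes described are 9 interferon-related genes, chosen by name and found by their Entrez gene ID among the 23604 genes listed in the RNA-Seq files: the interferon regulatory factors IRF1, IRF7 and IRF9, and the interferon-stimulated effectors IFIT1, IFIT2, IFIT3, ISG15, MX1 and OAS1. All 9 were listed and all 9 were tested. They were measured in MCF10A-ErSrc, an established line of human breast epithelial cells whose v-Src oncoprotein becomes active when tamoxifen is added. The 4 groups were NT (non-treated cells with DMSO), NT + TPL (non-treated cells with triptolide), TAM (tamoxifen-treated, transformed cells with DMSO) and TAM + TPL (tamoxifen-treated cells with triptolide). DMSO or triptolide (TPL, dosed as TPL-125nM in the labels) was given for 4 h. TPL is a diterpenoid that binds XPB, the helicase-like ATPase in the transcription factor TFIIH. Each group had 2 RNA-Seq libraries from separate biological replicates, and 1 list of RNAPII ChIP-Seq peaks. Both the NT and TAM cells carry the same inducible construct, and TAM cells differ from NT cells in tamoxifen exposure as well as in Src activity, so these cannot be told apart here.

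Interferons are secreted proteins that warn cells of infection. Type I and type III interferons act through receptor-bound JAK kinases on STAT proteins, which join IRF9 to form the factor ISGF3, and ISGF3 binds the interferon-stimulated response element (ISRE) in the promoters of effector genes. Interferon gamma acts through gamma-activated sites (GAS), IRF1 being a well-known target, and STAT3 can bind sites of the same kind. IRF1 and IRF7 are themselves transcription factors, and IRF7 amplifies the production of type I interferon. In epithelial cells a low level of many of these genes is present without infection.

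The promoters are shown because ISRE and GAS letters are the elements through which ISGF3 and STAT dimers act. In a RefSeq table on GRCh38.p14, 7 of the 9 genes had a promoter entry, and IFIT2 and IRF7 had none. The 250 bases before each annotated start were searched on both strands for the ISRE core GAAANNGAAA (TTTCNNTTTC on the other strand), for the palindromic GAS core TTCNNNGAA and for the TATA box letters TATAAA, which hold for 3.02%, 6.56% and 10.7% of 35097 promoters, respectively. The last 170 bases before the start are given for 6 genes, 5′ to 3′ along transcription, with the ISRE and GAS letters in capitals.
IFIT1 (chr10:89392453-89392622, plus strand): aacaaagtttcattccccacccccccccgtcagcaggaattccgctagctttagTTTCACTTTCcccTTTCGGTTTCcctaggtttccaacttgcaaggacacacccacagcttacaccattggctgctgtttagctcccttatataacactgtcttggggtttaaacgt
IFIT3 (chr10:89327827-89327996, plus strand): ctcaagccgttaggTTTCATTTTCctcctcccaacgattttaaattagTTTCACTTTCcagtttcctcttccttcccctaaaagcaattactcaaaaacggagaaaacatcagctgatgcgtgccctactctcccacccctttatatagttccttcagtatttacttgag
ISG15 (chr1:1013327-1013496, plus strand): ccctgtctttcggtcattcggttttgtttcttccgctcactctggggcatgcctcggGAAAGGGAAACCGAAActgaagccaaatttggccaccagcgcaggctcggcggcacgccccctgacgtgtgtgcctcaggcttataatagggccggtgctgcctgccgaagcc
IRF1 (chr5:132490774-132490943, minus strand): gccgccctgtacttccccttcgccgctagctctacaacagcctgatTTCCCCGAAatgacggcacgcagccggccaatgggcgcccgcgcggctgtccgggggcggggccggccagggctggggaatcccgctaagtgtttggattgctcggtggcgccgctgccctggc
IRF9 (chr14:24161095-24161264, plus strand): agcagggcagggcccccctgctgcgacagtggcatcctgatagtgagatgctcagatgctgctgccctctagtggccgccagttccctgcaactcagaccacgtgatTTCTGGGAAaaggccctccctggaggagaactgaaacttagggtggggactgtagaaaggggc
OAS1 (chr12:112906792-112906961, plus strand): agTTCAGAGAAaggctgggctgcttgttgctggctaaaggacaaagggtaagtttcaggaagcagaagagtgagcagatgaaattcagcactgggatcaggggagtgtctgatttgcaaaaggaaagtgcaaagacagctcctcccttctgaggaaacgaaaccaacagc
IFIT1 held 2 ISRE cores, at 116 to 107 and 103 to 94 bases before the start. IFIT3 held 2, at 156 to 147 and 122 to 113 bases before its first listed start, and ISG15 held 2 that overlap in a single run. IRF1, IRF9 and OAS1 held a GAS core and no match to the ISRE core as searched in this window. The search required exactly 2 free bases between the GAAA letters. The OAS1 sequence also holds GAAACGAAA near its end, with 1 free base, which was not counted. Of the 3 MX1 promoters listed, 1 matched the ISRE core as searched, overlapping a GAS core, at 196 to 181 bases before the start. Another MX1 promoter held TTTCGTTTC and TTTCATTTC, each with 1 free base, which were likewise not counted. IFIT3 was the gene whose promoter also held the TATA letters. These matches are descriptions of letters, not of bound factors.

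The libraries held between 7461309 and 8349448 expected counts, which are RSEM's estimates of the reads per gene. Levels are given in FPKM, which are those estimates scaled by transcript length and by the library's reads. Differences are log2 fold changes with their standard error (SE) from edgeR's quasi-likelihood test on the rounded counts, with the 4 groups in a single fit and Benjamini-Hochberg adjustment over 16948 genes. A gene is said to have risen or fallen when its adjusted p was at most 0.05, and to be called when that p was 0.001 or less and the fold change reached 1.2 on the log2 scale, up or down. FPKM and fold changes are relative to the whole library, so a change of total RNA per cell is not seen, and in bulk samples fewer cells of a type and less RNA per cell cannot be told apart. All 7 markers of basal mammary epithelium exceeded 1 FPKM in at least 1 library, with KRT5 between 434.04 and 6249.55 FPKM. Their summed level was 13000 to 14600 FPKM (NT), 9340 to 11500 (NT + TPL), 3180 to 3410 (TAM) and 1690 to 1850 (TAM + TPL), so it moved with the groups compared below, and its part in the results was not tested. KRT5 and KRT17 made up most of that sum, and not every marker followed it. EPCAM was at 25.12 and 24.16 FPKM in NT and at 51.16 and 61.67 in TAM + TPL. ITGB4 was higher with TPL in NT cells, at 723.82 and 532.83 FPKM against 365.73 and 392.77. Of 6 immune markers, LILRA4 was listed at 0 in every library and CD3E reached 0.17 FPKM, while LYZ lay between 17.87 and 47.22 FPKM, CD14 between 5.75 and 18.60 and PTPRC between 0.16 and 2.14. The summed level of these 6 was 28.3 to 43.1 FPKM (NT), 53.0 to 64.1 (NT + TPL), 25.4 to 29.5 (TAM) and 47.3 to 51.8 (TAM + TPL). The 4 fibroblast markers summed to at most 12.9 FPKM and the 3 endothelial markers to at most 1.73, with CDH5 at 0.

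IRF7, the factor that amplifies type I interferon production, was the gene with the clearest change. Its level was 2.16 and 2.71 FPKM (NT), 14.22 and 12.50 (NT + TPL), 10.36 and 8.84 (TAM) and 14.81 and 16.89 (TAM + TPL). The NT libraries lay below all others. With DMSO, IRF7 was higher in TAM than in NT cells by 1.99 on the log2 scale (SE 0.21, adjusted p = 0.00265, edgeR), and with TPL this difference was 0.23 (SE 0.192, adjusted p = 0.567, edgeR). TPL raised it in NT cells by 2.44 (SE 0.212, adjusted p = 0.0005, edgeR), which was a call, and in TAM cells by 0.69 (SE 0.194, adjusted p = 0.0341, edgeR). The order of the group means was NT at 2.44 ± 0.389 FPKM (SD, n = 2), TAM at 9.60 ± 1.07, NT + TPL at 13.4 ± 1.22 and TAM + TPL at 15.9 ± 1.47, and the last 2 did not differ beyond the test's threshold.

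IRF1, the factor first induced by interferon gamma, rose with TPL in both cell states. It was at 14.82 and 10.75 FPKM (NT), 25.83 and 40.78 (NT + TPL), 15.09 and 16.08 (TAM) and 30.90 and 28.35 (TAM + TPL). Every TPL library was above every DMSO library, and the NT + TPL libraries were the farthest apart. The increase was 1.38 in NT cells (SE 0.269, adjusted p = 0.00843, edgeR) and 0.88 in TAM cells (SE 0.266, adjusted p = 0.0428, edgeR). Between the cell states IRF1 differed by 0.30 with DMSO (SE 0.268, adjusted p = 0.608, edgeR) and by -0.20 with TPL (SE 0.262, adjusted p = 0.736, edgeR), neither of which passed. The group means were 12.8 ± 2.88 FPKM in NT, 15.6 ± 0.70 in TAM, 29.6 ± 1.80 in TAM + TPL and 33.3 ± 10.6 in NT + TPL (SD, n = 2 each).

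IRF9, the DNA-binding subunit of ISGF3, fell with TPL in TAM cells, where IRF1 rose. It was at 10.69 and 10.85 FPKM (NT), 8.53 and 5.37 (NT + TPL), 21.52 and 22.35 (TAM) and 11.74 and 9.61 (TAM + TPL). The TAM libraries stood above the other 6, and the TAM + TPL libraries lay on both sides of the NT libraries. IRF9 rose in TAM over NT cells with DMSO by 1.04 (SE 0.225, adjusted p = 0.0407, edgeR), and in TAM cells TPL lowered it, at -1.09 (SE 0.226, adjusted p = 0.0118, edgeR). In NT cells the TPL difference was -0.64 (SE 0.23, adjusted p = 0.0655, edgeR), and between TAM + TPL and NT + TPL it was 0.60 (SE 0.231, adjusted p = 0.195, edgeR).

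**Figure D1:**
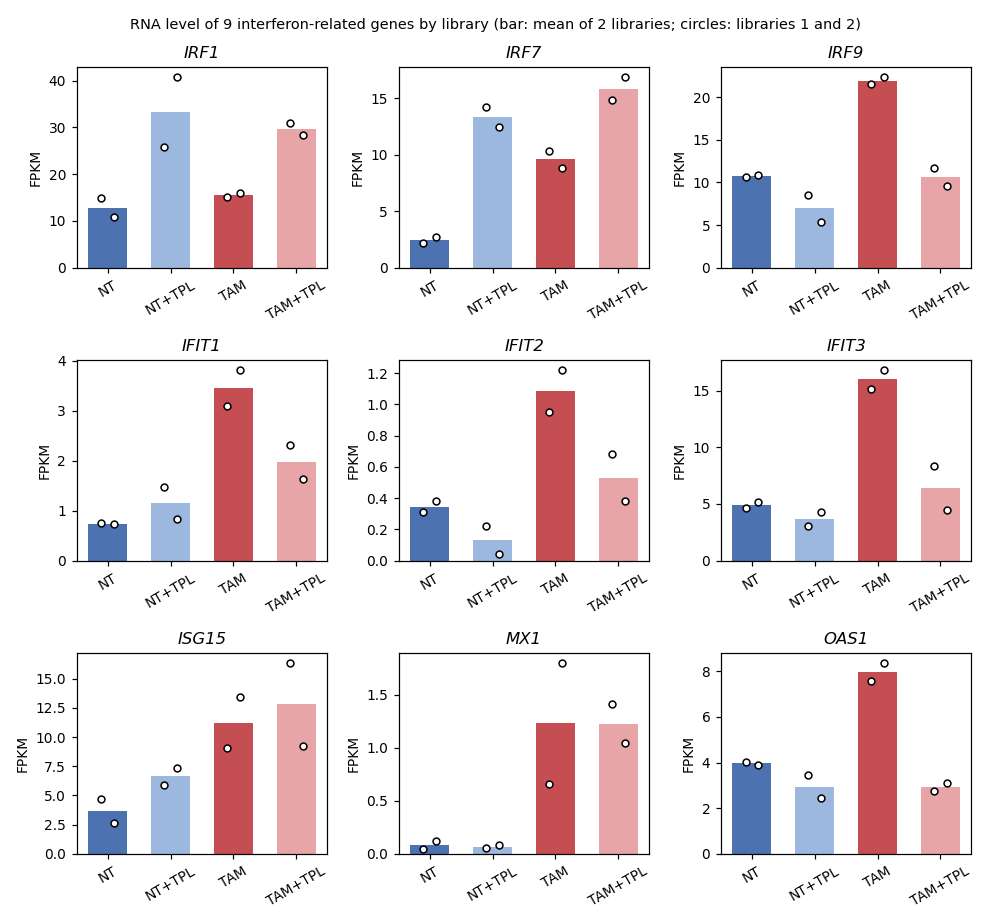
RNA level in FPKM (vertical axes, from 0, a scale of its own for each gene) of the 9 genes in the 4 groups; bars are the means of 2 libraries and circles the libraries. IRF1 was highest in the 2 TPL groups, IRF9, IFIT1, IFIT2, IFIT3 and OAS1 had their highest mean in TAM, and MX1 was at most 0.12 FPKM in the NT and NT + TPL libraries.

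The IFIT genes encode tetratricopeptide proteins that bind foreign RNA, and lie side by side on chromosome 10. IFIT3 was the most abundant of them, at 4.63 and 5.18 FPKM (NT), 3.04 and 4.32 (NT + TPL), 15.17 and 16.81 (TAM) and 8.33 and 4.49 (TAM + TPL). Both TAM libraries were above all others. IFIT3 rose in TAM over NT cells with DMSO by 1.73 (SE 0.33, adjusted p = 0.0257, edgeR) and fell with TPL in TAM cells, at -1.39 on that scale (SE 0.325, adjusted p = 0.0183, edgeR). In NT cells the TPL difference was -0.42 (SE 0.336, adjusted p = 0.354, edgeR).

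IFIT1 was at 0.75 and 0.73 FPKM (NT), 1.48 and 0.83 (NT + TPL), 3.09 and 3.82 (TAM) and 2.32 and 1.64 (TAM + TPL). Both TPL libraries were above both DMSO libraries in NT cells and below them in TAM cells. IFIT1 rose in TAM over NT cells with DMSO by 2.22 (SE 0.363, adjusted p = 0.0144, edgeR). The TPL differences were 0.62 in NT cells (SE 0.359, adjusted p = 0.213, edgeR) and -0.85 in TAM cells (SE 0.344, adjusted p = 0.0987, edgeR), and neither passed.

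IFIT2 was the least abundant of the 3, at 0.31 and 0.38 FPKM (NT), 0.22 and 0.04 (NT + TPL), 0.95 and 1.22 (TAM) and 0.68 and 0.38 (TAM + TPL). These levels rest on between 1 and 36 counts per library. Its differences were 1.64 between TAM and NT cells with DMSO (SE 0.718, adjusted p = 0.269, edgeR), -1.42 with TPL in NT cells (SE 0.788, adjusted p = 0.192, edgeR) and -1.07 with TPL in TAM cells (SE 0.702, adjusted p = 0.271, edgeR), and none passed. Without NT + TPL replicate 1, which leaves the library with 1 count, the difference with TPL in NT cells became -3.05 (adjusted p = 0.0467, edgeR). The 3 IFIT genes share stretches of sequence, so RSEM's split of reads between them is uncertain. On hg19 the annotated exons of IFIT2 and IFIT3 also overlap those of LIPA on the opposite strand, those of MX1 overlap TMPRSS2 and those of IRF1 an antisense RNA, and whether the counting used the strand is not given in the sources used here. Exons of IRF9 overlap an unnamed protein-coding gene on the same strand.

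OAS1, an oligoadenylate synthetase that switches on RNase L, was at 4.03 and 3.89 FPKM (NT), 3.46 and 2.43 (NT + TPL), 7.57 and 8.37 (TAM) and 2.73 and 3.09 (TAM + TPL). The TAM libraries were above the other 6, which lay between 2.43 and 4.03 FPKM. OAS1 fell with TPL in TAM cells, at -1.49 on the log2 scale (SE 0.273, adjusted p = 0.0074, edgeR), the largest fall among the 9 genes that passed. The difference between TAM and NT cells was 1.02 with DMSO (SE 0.268, adjusted p = 0.0768, edgeR) and -0.02 with TPL (SE 0.273, adjusted p = 0.98, edgeR). The TPL difference in NT cells was -0.45 (SE 0.272, adjusted p = 0.229, edgeR). A second OAS1 entry, listed by RefSeq accession with at most 9.97 counts in a library, did not pass the filter on low counts.

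ISG15 encodes a ubiquitin-like protein that is joined to other proteins after interferon. It was at 4.66 and 2.61 FPKM (NT), 5.91 and 7.38 (NT + TPL), 9.04 and 13.41 (TAM) and 16.35 and 9.26 (TAM + TPL). The TAM and TAM + TPL libraries overlapped, and all 4 were above the NT and NT + TPL libraries. None of the ISG15 differences passed the test: it was 1.64 between TAM and NT cells with DMSO (SE 0.471, adjusted p = 0.10, edgeR), 0.91 with TPL (SE 0.457, adjusted p = 0.318, edgeR), 0.86 with TPL in NT cells (SE 0.471, adjusted p = 0.187, edgeR) and 0.14 with TPL in TAM cells (SE 0.449, adjusted p = 0.83, edgeR). DESeq2 gave an adjusted p of 0.0247 for the first of these.

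MX1, a dynamin-like GTPase that blocks viruses, was nearly unread in NT cells. It had 1 and 2 counts (NT), 1 and 2 (NT + TPL), 14 and 40 (TAM) and 32 and 18 (TAM + TPL), or 0.04 and 0.12, 0.05 and 0.08, 0.66 and 1.80, and 1.41 and 1.04 FPKM. The TAM and TAM + TPL libraries overlapped and were all above those of NT cells. Summed over libraries and scaled to their totals, MX1 was 17.5 times as high in TAM as in NT (exact 95% interval 5.68 to 87.5) and 16.2 times as high in TAM + TPL as in NT + TPL (5.24 to 81.3), the intervals covering counting error only. Its adjusted p was 0.0414 with DMSO and 0.0453 with TPL (edgeR). MX1 passed the filter on low counts only through its tamoxifen-treated libraries, so some difference between the cell states was a condition for testing it, and the same holds for IFIT2. No fold is given for TPL in NT cells, where both groups had 3 counts. In TAM cells the TPL difference was -0.05 (SE 0.702, adjusted p = 0.967, edgeR), and its sign changed with the scaling and with the library left out.

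**Figure D2:**
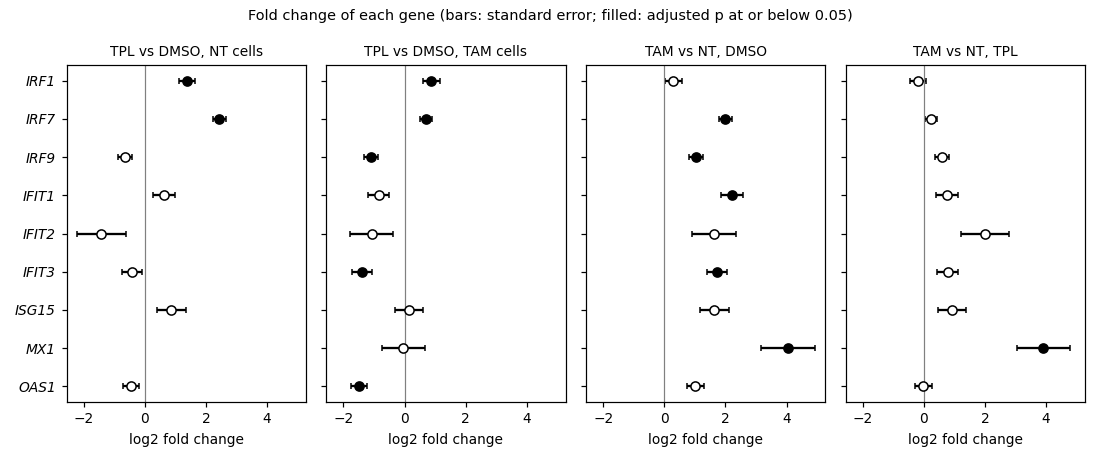
Log2 fold change (horizontal axes) of each gene in the 4 comparisons, with bars of 1 standard error. MX1 is not drawn for TPL in NT cells. Filled circles have an adjusted p of at most 0.05. With DMSO all 9 circles lay to the right of 0 for TAM against NT cells, and in TAM cells TPL raised IRF1 and IRF7 and lowered IRF9, IFIT3 and OAS1.

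Of the 9 genes, 5 were higher in TAM than in NT cells without TPL. With DMSO, IRF7, IRF9, IFIT1, IFIT3 and MX1 rose in TAM over NT cells, against 3.46% of all genes tested that rose, and 0 fell where 3.39% of all genes fell. Without MX1 and IFIT2, which had to differ to be tested, it was 4 of 7. The median log2 fold change was 1.64 over the 9 genes and -0.03 over all genes. None was called by edgeR, against 0.655% of all genes in either direction. DESeq2 called 3 of the 9, where over all 16948 genes it called 390 higher and 355 lower, and limma on log2(FPKM + 1) called 0. An unadjusted p under 0.05 was found for 7 of the 9 by edgeR, a limit for which no share of all genes is given here. With any 1 of the 4 libraries left out, IRF7 was the sole gene of the 9 to pass, its adjusted p lying between 0.0169 and 0.0286. IRF9 then had an adjusted p of 0.159 to 0.206, IFIT1 of 0.0623 to 0.105, IFIT3 of 0.112 to 0.164 and MX1 of 0.0623 to 0.234.

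With TPL present the estimated difference between the cell states was smaller for most of the 9 genes, although by edgeR no interaction passed. MX1 alone passed, a gene that had to differ to be tested. Without it and IFIT2, 0 of 7 passed, where 2.83% of all genes rose and 4.21% fell. MX1 missed the threshold when any 1 of the 4 libraries was left out (adjusted p 0.113 to 0.21, edgeR). The median over the 9 genes was 0.75, against -0.02 over all genes. That median includes MX1 and IFIT2. By edgeR 0 of 9 were called, against 0.596% of all genes. The 3 of 9 at an unadjusted p under 0.05 were IRF9, IFIT2 and MX1, of which IFIT2 and MX1 had to differ to be tested. DESeq2 also called 0, where over all 16948 genes it called 303 higher and 368 lower, and limma called 0.

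In NT cells TPL raised both IRF1 and IRF7 and passed for none of the 6 effectors. That is 2 of 9 risen where 17.2% of all genes rose, and 0 fallen where 19.8% of all genes fell. The median was 0.08 over the 9 genes and 0.09 over all genes. IRF7 was the 1 gene called, against 3.93% of all genes. DESeq2 had 3 of 9 past an adjusted p of 0.05, where over all 16948 genes 3536 passed higher and 3744 lower. An unadjusted p under 0.05 was found for 3 by edgeR, with no share of all genes given here. The call of IRF7 ended when any 1 of the 4 libraries was left out, with an adjusted p between 0.00178 and 0.00537, and IRF1 missed 0.05 without NT replicate 2 (adjusted p = 0.0616, edgeR). Scaling to GAPDH brought IRF7 to 2.07 (adjusted p = 0.00189, edgeR), which is not a call.

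In TAM cells TPL moved the 9 genes both ways. IRF1 and IRF7 rose, 2 of 9 where 14.3% of all genes rose, and IRF9, IFIT3 and OAS1 fell, 3 of 9 where 18.6% of all genes fell. The median was -0.85, against 0.05 over all genes. None was called by edgeR, against 2.88% of all genes. DESeq2 called 2 (IFIT3 and OAS1), where over all 16948 genes it called 885 higher and 1393 lower, and limma called 0. An unadjusted p under 0.05 was found for 6 by edgeR, with no share of all genes given here. Leaving out TAM replicate 1 or TAM + TPL replicate 2 left OAS1 as the 1 gene that passed, leaving out TAM + TPL replicate 1 left IFIT3, and without TAM replicate 2 none passed. This comparison and that of TAM with NT cells share the TAM libraries and are not independent of each other.

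The difference between the TPL effects in TAM and NT cells was tested as an interaction. None of the 9 passed an adjusted p of 0.05 by edgeR, where 0.165% of all genes did, and 0 were called, where 0.0% of all genes were. IRF7, IFIT1 and OAS1 had an unadjusted p under 0.05. The values were -1.76 for IRF7 (SE 0.283, adjusted p = 0.0997), -1.47 for IFIT1 (SE 0.497, adjusted p = 0.374) and -1.04 for OAS1 (SE 0.382, adjusted p = 0.412), all by edgeR. For IRF7 the adjusted p was 0.000108 with DESeq2, which called it, and 0.038 in edgeR among genes with at least 10 counts in every library, and 0 passed with limma.

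The rest of the pathway was followed in 7 lists of genes. The interferon genes themselves were almost unread. Of 9 ligand genes, 5 were listed and 0 passed the filter on low counts. The highest value was 6 counts, for IFNK in TAM replicate 1, and IFNL1, IFNL2, IFNE and IFNW1 had at most 4 counts in a library. IFNA1, IFNB1, IFNG and IFNL3 were not analysed here.

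Among 51 other interferon-stimulated effectors tested, 12 rose and 0 fell in TAM over NT cells with DMSO, where 3.46% of all genes rose and 3.39% fell, and their median was 0.55, against -0.03 over all genes. BATF2, which rose (3.48, adjusted p = 0.025, edgeR), and MX2, which did not pass, were kept by the filter on low counts only through tamoxifen-treated libraries. Some difference between the cell states was therefore a condition for testing them. The 12 include BATF2, and the median includes both. In either direction 22 of the 51 passed an adjusted p of 0.05 with DESeq2, where over all 16948 genes 1042 passed higher and 1024 lower. An unadjusted p under 0.05 was found for 26 by edgeR, with no share of all genes given here. Named members were OAS2, a second oligoadenylate synthetase, which went from 0.40 and 0.40 FPKM in NT to 2.54 and 3.05 in TAM (log2 fold change 2.92, SE 0.44, adjusted p = 0.0106, edgeR), and RSAD2, the antiviral enzyme viperin, from 0.56 and 0.88 to 3.61 and 2.84 FPKM (2.19, SE 0.437, adjusted p = 0.0304, edgeR). With TPL present 5 rose and 4 fell between the cell states, where 2.83% of all genes rose and 4.21% fell, OAS2 again being higher by 2.07 (adjusted p = 0.0346, edgeR) and PLSCR1, a phospholipid scramblase, by 1.90 (adjusted p = 0.00692, edgeR). PLSCR1 was higher in TAM cells with DMSO as well (1.74, adjusted p = 0.00878, edgeR).

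With TPL, 11 of the same 51 effectors rose and 10 fell in NT cells, shares near those of all genes (17.2% rose and 19.8% fell). In TAM cells 3 rose and 14 fell, where 14.3% of all genes rose and 18.6% fell. The 14 include BATF2 (-2.5, adjusted p = 0.0214, edgeR), which the filter on low counts kept only through its TAM libraries. The medians were 0.40 and -0.16, against 0.09 and 0.05 over all genes. IFIT5, the fourth IFIT gene measured, was called in both: it fell from 8.11 and 9.94 FPKM in NT to 1.18 and 1.10 in NT + TPL (-2.98, SE 0.207, adjusted p = 0.000268, edgeR) and from 6.72 and 8.0 in TAM to 1.51 and 1.62 in TAM + TPL (-2.28, SE 0.199, adjusted p = 0.000573, edgeR). PARP12, an antiviral ADP-ribosyltransferase, was called in NT cells (-2.03, adjusted p = 0.00076, edgeR), with 9.33 and 8.28 FPKM in NT and 1.83 and 2.46 in NT + TPL. PARP12 also fell in TAM cells (-1.82, adjusted p = 0.00112, edgeR). TRIM14, an adaptor of antiviral signalling, fell by 1.73 in NT cells (adjusted p = 0.00533, edgeR), and the change in TAM cells was -1.88 on the same scale (adjusted p = 0.0045, edgeR). HELZ2, a helicase, rose by 1.55 in NT cells (adjusted p = 0.00321, edgeR), from 4.45 and 4.49 FPKM to 14.65 and 12.12 FPKM. In TAM cells HELZ2 rose by 1.31 (adjusted p = 0.00611, edgeR). IFI16, a nuclear DNA sensor, went from 156.19 and 156.29 FPKM in TAM to 37.21 and 43.70 in TAM + TPL (-2.0, adjusted p = 0.00116, edgeR). IFI16 fell in NT cells as well (-0.98, adjusted p = 0.0136, edgeR).

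Targets of interferon gamma and genes of antigen presentation rose more often than they fell with TPL in NT cells. Of 27 tested, 13 rose, 1 fell and 13 did not pass, where 17.2% of all genes rose and 19.8% fell, and the median was 0.76. In TAM cells 5 rose and 3 fell, where 14.3% of all genes rose and 18.6% fell, and the median was 0.25. HLA-E, a class I molecule read by natural killer cells, was called in NT cells, from 68.27 and 61.61 to 155.00 and 162.93 FPKM (1.29, SE 0.128, adjusted p = 0.000741, edgeR). HLA-E rose in TAM cells as well (1.02, adjusted p = 0.00181, edgeR). GBP4, a guanylate-binding protein, rose by 2.03 in NT cells (adjusted p = 0.00654, edgeR) and by 1.45 in TAM cells (adjusted p = 0.0221, edgeR). IDO1, a tryptophan-degrading enzyme, rose by 1.48 in NT cells (adjusted p = 0.0435, edgeR) and did not pass in TAM cells (1.22, adjusted p = 0.0857, edgeR). PSMB9, an immunoproteasome subunit, fell in TAM cells, with 4.41 and 5.81 FPKM in TAM and 1.55 and 2.61 in TAM + TPL (-1.33, adjusted p = 0.0492, edgeR). PSMB9 was at 6.93 and 4.07 FPKM in NT and 11.36 and 13.31 in NT + TPL, a difference that did not pass (1.16, adjusted p = 0.0604, edgeR).

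Between the cell states, 1 of these 27 genes rose and 2 fell with DMSO, where 3.46% of all genes rose and 3.39% fell. With TPL 1 rose and 5 fell, where 2.83% and 4.21% of all genes did. WARS1, the tryptophanyl-tRNA synthetase, was higher in TAM cells by 1.47 with DMSO (adjusted p = 0.00107, edgeR) and by 2.03 with TPL, where it was called (adjusted p = 0.000287, edgeR). GBP2, also a guanylate-binding protein, was lower, at 5.66 and 5.02 FPKM in NT and 0.74 and 0.58 in TAM (-3.00, SE 0.26, adjusted p = 0.00118, edgeR), and was called with TPL (-3.19, adjusted p = 0.000848, edgeR). GBP1 was lower in TAM cells with DMSO (-1.20, adjusted p = 0.00636, edgeR) and with TPL (-1.57, adjusted p = 0.00261, edgeR). PSMB9 was lower in TAM cells with TPL (-2.58, adjusted p = 0.016, edgeR) and did not pass with DMSO (-0.09, adjusted p = 0.947, edgeR).

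Of 7 other IRFs and partners tested, TPL lowered 5 in NT cells and 6 in TAM cells, where 19.8% and 18.6% of all genes fell, and none rose. The medians were -2.04 and -1.38. IRF3, the factor that TBK1 activates, did not pass in NT cells (-0.07, adjusted p = 0.667, edgeR) or in TAM cells (-0.05, adjusted p = 0.797, edgeR). IRF2, which competes with IRF1 for its sites, went from 9.61 and 9.94 FPKM in NT to 3.55 and 1.26 in NT + TPL (-2.04, adjusted p = 0.00913, edgeR), and fell by 1.68 in TAM cells (adjusted p = 0.0175, edgeR). Its partner IRF2BP2 fell by 3.79 in NT cells (adjusted p = 0.00155, edgeR) and by 3.33 in TAM cells (adjusted p = 0.00262, edgeR). IRF2BPL was called in both, at 6.55 and 7.01 FPKM in NT and 0.58 and 0.40 in NT + TPL (-3.78, adjusted p = 0.000246, edgeR) and at 18.25 and 16.48 FPKM in TAM cells, which became 1.32 and 0.92 with TPL (-4.0, adjusted p = 0.000252, edgeR).

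Of 9 receptor and kinase genes, 2 rose and 1 fell with TPL in NT cells and 1 rose and 2 fell in TAM cells, against 17.2% risen and 19.8% fallen over all genes in NT cells and 14.3% and 18.6% in TAM cells. IFNGR1, the chain that binds interferon gamma, rose in TAM over NT cells with DMSO by 1.38 (adjusted p = 0.00572, edgeR), was called lower with TPL in TAM cells (-2.33, SE 0.184, adjusted p = 0.000419, edgeR) and fell by 0.82 in NT cells (adjusted p = 0.0129, edgeR). It stood at 22.73 and 24.26 FPKM (NT), 16.05 and 10.78 (NT + TPL), 58.61 and 61.93 (TAM) and 12.15 and 12.69 (TAM + TPL). Its partner chain IFNGR2 rose in TAM cells with DMSO by 0.81 (adjusted p = 0.0134, edgeR) and fell there with TPL by 0.78 (adjusted p = 0.00545, edgeR). IL10RB, a chain of the type III receptor, rose with TPL by 1.15 in NT cells (adjusted p = 0.00235, edgeR) and by 0.66 in TAM cells (adjusted p = 0.0201, edgeR).

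Among 12 sensors of nucleic acid and their adaptors, 4 rose and 4 fell with TPL in NT cells and 1 rose and 5 fell in TAM cells, where over all genes the shares were 17.2% and 19.8% (NT cells) and 14.3% and 18.6% (TAM cells). The 4 that rose in NT cells include ZBP1, kept by the filter on low counts only through its TPL libraries, so it had to differ to be tested. They also include DHX58, with 4 and 2 counts in NT. CGAS, the cytosolic DNA sensor, was called in NT cells, from 17.81 and 15.16 to 1.74 and 1.54 FPKM (-3.33, SE 0.357, adjusted p = 0.000951, edgeR), and fell by 1.99 in TAM cells (adjusted p = 0.00514, edgeR). STING1, which relays the signal of CGAS, stood at 20.15 and 18.73 FPKM in NT and 108.03 and 99.48 in TAM and was called higher in TAM cells with DMSO (2.40, adjusted p = 0.000509, edgeR) and with TPL (2.36, adjusted p = 0.000438, edgeR). TPL raised STING1 by 0.91 in NT cells (adjusted p = 0.00569, edgeR) and by 0.88 in TAM cells (adjusted p = 0.00646, edgeR). The RNA sensor RIGI was higher in TAM cells with DMSO by 1.21 (adjusted p = 0.0223, edgeR). With TPL, RIGI rose by 1.27 in NT cells (adjusted p = 0.00568, edgeR) and did not pass in TAM cells (0.41, adjusted p = 0.181, edgeR). TICAM1, the adaptor of TLR3, fell with TPL by 2.10 in NT cells (adjusted p = 0.00176, edgeR) and by 2.08 in TAM cells (adjusted p = 0.00218, edgeR), and the kinase TBK1 fell by 1.45 in NT cells (adjusted p = 0.00172, edgeR). TBK1 also fell in TAM cells (-1.46, adjusted p = 0.00189, edgeR).

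Of 11 negative regulators, 2 rose and 5 fell with TPL in NT cells and 0 rose and 6 fell in TAM cells. Over all genes 17.2% rose and 19.8% fell in NT cells, and 14.3% rose and 18.6% fell in TAM cells. SOCS3, the feedback inhibitor of STAT3 signalling, was at 12.81 and 14.40 FPKM (NT), 6.15 and 5.71 (NT + TPL), 268.49 and 221.65 (TAM) and 14.01 and 18.24 (TAM + TPL). It was called higher in TAM cells with DMSO (4.19, SE 0.192, adjusted p = 9.1e-05, edgeR) and lower with TPL in TAM cells (-3.97, SE 0.19, adjusted p = 0.000234, edgeR), and the interaction was -2.77 (SE 0.254, adjusted p = 0.0348, edgeR), the 1 gene of all these lists to pass it. NFKBIA, the inhibitor of NF-kB, was called lower with TPL in NT cells (-2.64, adjusted p = 0.000205, edgeR) and in TAM cells (-3.50, adjusted p = 0.000234, edgeR), and TRIM27 in NT cells (-1.24, adjusted p = 0.0008, edgeR). TRIM27 fell in TAM cells too (-1.01, adjusted p = 0.0018, edgeR). SOCS1, the inhibitor of JAK kinases, rose in NT cells by 2.47 (adjusted p = 0.0169, edgeR), from 0.31 and 0.51 to 2.38 and 2.30 FPKM. These levels rest on 3 and 5 counts in NT and 22 and 21 in NT + TPL. The filter on low counts kept SOCS1 only through its TPL libraries, so some difference with TPL was a condition for testing it. In TAM cells SOCS1 did not pass (0.97, adjusted p = 0.203, edgeR). USP18, the protease that removes ISG15, fell in TAM cells by 1.36 (adjusted p = 0.0307, edgeR).

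**Figure D3:**
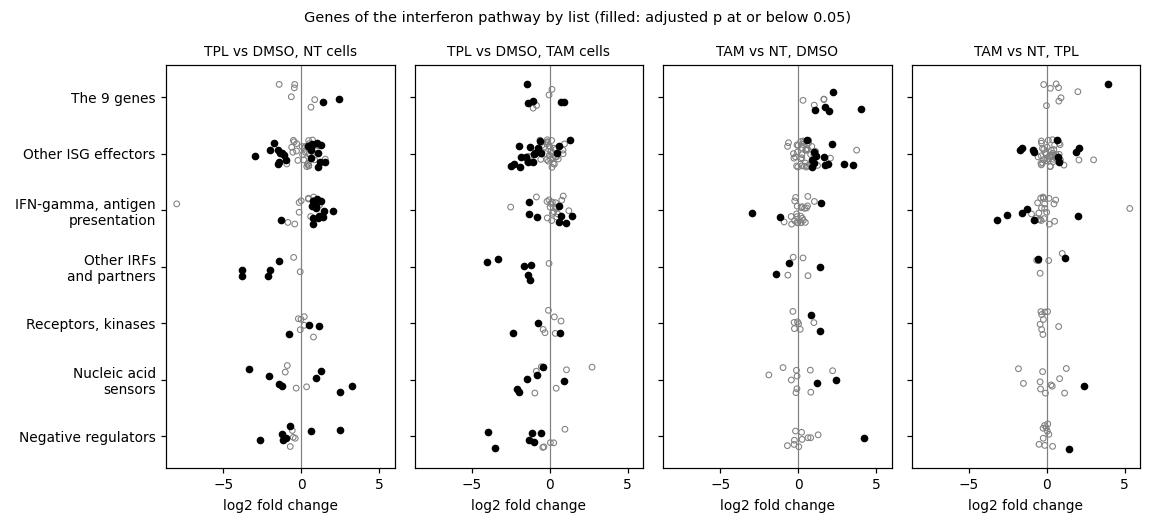
Log2 fold change (horizontal axes) of the tested genes of the lists in the 4 comparisons, 1 circle a gene, filled where the adjusted p was at most 0.05. MX1 is not drawn for TPL in NT cells. Vertical spread within a list has no meaning. For TAM against NT cells with DMSO, the filled circles of the other effectors all lay to the right of 0 (12 of 51), and for TPL those of the other IRFs and partners all lay to the left (5 and 6 of 7).

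RNAPII peaks over the transcription start sites (TSSs) were read from 1 list per condition. The lists give no height and no replicate, so peaks can be compared only as listed or not. The names inside the TAM list carry a threshold of 0.1 and those of the other 3 lists 0.02, every name carries the first replicate's sample name, and the lists held 11222 (NT), 8653 (NT + TPL), 11056 (TAM) and 8464 (TAM + TPL) peaks. For the TAM list the threshold and the condition therefore cannot be told apart. Against GENCODE TSSs on hg19, a TSS lay in a peak for 5 of the 9 genes in the NT list, where it did for 50.2% of 20163 protein-coding genes. With TPL it was 3 of 9 (40.5% of all), in the TAM list 7 of 9 (45.7%) and in the TAM + TPL list 5 of 9 (39.5%).

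The 3 IRFs had a peak in all 4 lists and the effectors did not. IRF1 and IRF9 had their canonical TSS (the start of the Ensembl canonical transcript) in a peak in every condition, the IRF1 peak being 723 bases wide (NT), 456 (NT + TPL), 581 (TAM) and 634 (TAM + TPL). IRF7 had a peak of 432 to 473 bases over its canonical TSS in NT, NT + TPL and TAM + TPL, for example chr11:615560-616019 in NT. In TAM the listed IRF7 peak was 3411 bases wide, chr11:611324-614734, began 1216 bases downstream of that TSS and held other annotated starts.

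Among the effectors, IFIT1 and OAS1 had a peak in the TAM list alone, chr10:91152165-91152454 of 290 bases and chr12:113344495-113344819 of 325 bases, both over the canonical TSS. IFIT3 had a peak over its canonical TSS in NT (472 bases), in TAM (822 bases, chr10:91087500-91088321) and in TAM + TPL (185 bases), and none in NT + TPL. MX1 had a TSS in a peak in TAM alone, at positions -5960 to -5390 from the canonical TSS (chr21:42792206-42792776). ISG15 had its canonical TSS in a peak in TAM + TPL alone (chr1:948668-948908, 241 bases), while the NT peak that held other annotated starts of it lay upstream, at -13517 to -11395. IFIT2 had no listed peak over a TSS in any condition. IFIT1, IFIT3 and OAS1, with peaks in TAM, were the effectors whose highest FPKM libraries were those of TAM, as was IFIT2, which had no peak. MX1, with a peak in TAM alone, had a mean of 1.23 FPKM in both TAM and TAM + TPL. Peaks listed in TAM alone are also subject to that list's other threshold.

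**Figure D4:**
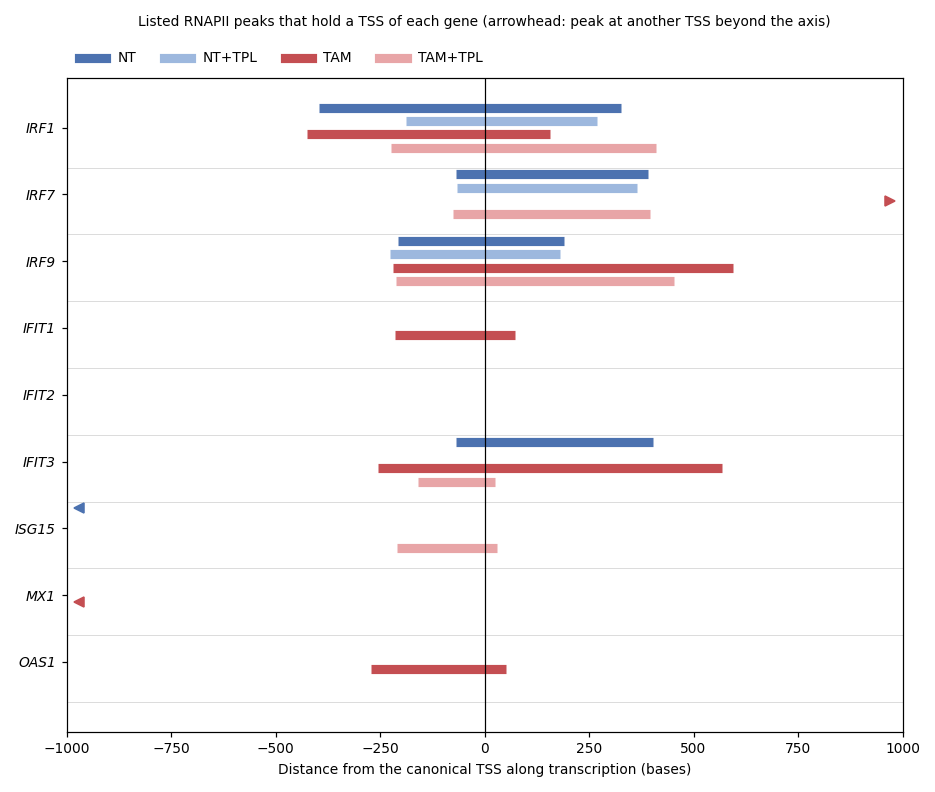
Extent of each listed RNAPII peak that holds a TSS of the gene, in bases from the canonical TSS along transcription (horizontal axis), by gene and condition; arrowheads mark peaks beyond the axis that hold another TSS. IRF1 and IRF9 had peaks in all 4 conditions, IFIT1 and OAS1 in TAM alone and IFIT2 in none; peak names in the TAM list carry another threshold.

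The genes whose pattern was most like that of the 6 effectors were found among 14128 tested genes of at least 1 FPKM on average, by Pearson's r over the 8 libraries of log2(CPM + 1) with the mean standardized profile of the 6. They were PLOD1 (r = 0.989), CKAP2L (0.988), PLPP3 (0.974), NDFIP1 (0.967) and VRK1 (0.967). PLOD1, a collagen-modifying enzyme, was at 22.77 and 22.29 FPKM (NT), 23.17 and 21.68 (NT + TPL), 35.73 and 37.57 (TAM) and 29.77 and 27.25 (TAM + TPL). CKAP2L, a spindle protein, went from 0.80 and 0.75 FPKM in NT to 2.87 and 3.18 in TAM. For IRF1 they were DNASE1 (0.993), DCP1A (0.992), FAM21EP (0.991), RPLP1 (0.99) and BACC1 (0.99), with RPLP1, a ribosomal protein gene, at 2762.78 and 2264.52 FPKM in NT and 4423.86 and 5882.89 in NT + TPL. These values describe 8 libraries in 4 groups that share their scaling, and no link between the genes is inferred from them.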

How the data were processed

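MCF10A-ErSrc cultures in 4 groups of 2 were compared by RNA-Seq, and 4 RNAPII peak lists were read. The authors sequenced poly-A RNA, mapped the reads to reference genes with Bowtie2 and estimated expression with RSEM. The deposited expected counts are estimates of reads for each gene, not normalized, and the deposited FPKM values divide them by effective length and library total. A gene absent from a library's file was taken as 0 there. The peak lists were made by the authors on hg19, and the submitters' processing notes name MACS 1.4.2. Their deposited values are positions with no score or height.

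After rounding, the counts entered edgeR 4.0.16 (R 4.3.3) with TMM scaling and filterByExpr, and the 16948 genes kept were tested in a single quasi-likelihood fit of 4 groups without pairing, with Benjamini-Hochberg adjustment. The fit was tested on simulated data first. Calls needed both an adjusted p within 0.001 and a change of 1.2 or more on the log2 scale. Depth was 7461309 to 8349448 counts per library, and 99.4% of the listed genes were matched to a symbol. TSSs came from GENCODE release 44 on build 37, and promoters from RefSeq on GRCh38.p14, with no coordinates moved between builds. Alternatives were DESeq2 1.42.0, limma 3.58.1 on log2(FPKM + 1) and log2(FPKM + 0.1), other scalings, filters and thresholds, a replicate block, a fit over the groups compared and each library left out. Summaries used Python 3.11.15, pandas 2.3.3, numpy 2.4.6, scipy 1.17.1 and matplotlib 3.10.9.

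The 9 genes and the gene lists were chosen with earlier results of these data known. The text names the 9 genes and, for each comparison, every called gene of a list and up to 2 others past an adjusted p of 0.05 with the largest fold change and a mean of at least 1 FPKM. The likeness to the effectors or to IRF1 was given for 5 genes each. Some genes that this rule or the lists include are counted but not reported by name here. The ChIP-Seq signal was not used here.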

Additional observations from a re-analysis of the deposited data

Results flagged for a closer look

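IFIT1 was singled out because both TPL libraries lay above both DMSO libraries in NT cells and below them in TAM cells. The levels were 0.75 and 0.73 FPKM (NT), 1.48 and 0.83 (NT + TPL), 3.09 and 3.82 (TAM) and 2.32 and 1.64 (TAM + TPL). The margin in NT cells was thin, with 28.09 expected counts in NT + TPL replicate 2 and 27.98 in NT replicate 1. The difference between the TPL effects was -1.47 on the log2 scale (SE 0.497) and did not pass (adjusted p = 0.374, edgeR). SOCS3 was singled out because the difference between its TPL effects was -2.77 (SE 0.254, adjusted p = 0.0348, edgeR). In TAM cells the libraries had 268.49 and 221.65 FPKM with DMSO and 14.01 and 18.24 with TPL, and in NT cells 12.81 and 14.40 with DMSO and 6.15 and 5.71 with TPL.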

How the results depend on the processing

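Of 660 refits of a single gene's fold change, 574 kept the direction and the side of an adjusted p of 0.05, 53 lost it, 12 gained it and 21 changed sign, each sign change in a value that had not passed. Among the counts of called genes, TPL in NT cells (1) became 2 with DESeq2, 0 with GAPDH scaling, 0 with a fit over the groups compared and 2 at an adjusted p of 0.05 without a fold limit. TPL in TAM cells (0) became 2 with DESeq2 and 5 at 0.05. TAM against NT cells with DMSO (0) became 3 with DESeq2, 1 among genes with at least 10 counts in every library and 5 at 0.05; the same with TPL (0) became 1 at 0.05. The interaction (0) became 1 with DESeq2. Over all 16948 genes DESeq2 called 956 higher and 1598 lower for TPL in NT cells, and 885 and 1393 for TPL in TAM cells. It called 390 higher and 355 lower for TAM against NT cells with DMSO, and 81 and 63 for the interaction. Leaving out any 1 of the 4 libraries compared gave 0 calls for TPL in NT cells.

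Among genes past 0.05, GAPDH scaling changed 5 to 3 for TPL in TAM cells, 5 to 3 for TAM against NT cells with DMSO and 1 to 0 for the same under TPL. That last count was also 0 among genes with at least 10 counts and in a fit over the groups compared. The interaction went from 0 to 1 with DESeq2 and to 1 among genes with at least 10 counts. With 1 of the libraries compared left out, the counts ranged from 1 to 4 for TPL in NT cells and from 0 to 1 for TPL in TAM cells, and were 1 in each fit for TAM against NT cells with DMSO and 0 in each under TPL. The cause of these moves was not tested.

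Whether equal replicate numbers pair cultures across groups is not given in the labels. The correlation of replicate differences between groups was -0.113 to 0.0472, which cannot decide it with 2 replicates a group. With the replicate block the calls for TPL in NT cells went from 1 to 0, and the genes past 0.05 from 5 to 3 for TPL in TAM cells, from 5 to 2 for TAM against NT cells with DMSO and from 1 to 0 under TPL.

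Signs changed for ISG15 with TPL in TAM cells (-0.00 with GAPDH scaling), for MX1 in the same comparison (0.00 with library size, 0.19 with upper quartile scaling, 0.13 with the replicate block, 0.04 and 0.13 with limma), for IRF1 between TAM and NT cells with DMSO (-0.15 with GAPDH scaling), for OAS1 between TAM and NT cells with TPL (0.01 with DESeq2 and with its size factors, 0.03 with upper quartile scaling, 0.00 with limma on log2(FPKM + 0.1)) and for the IFIT2 interaction (-0.20 with limma on log2(FPKM + 1)). With a library left out ISG15 ranged from -0.33 to 0.51, MX1 from -0.63 to 0.89, IRF1 with TPL from -0.49 to 0.23, OAS1 from -0.20 to 0.24 and the IFIT2 interaction from -0.39 to 1.99.

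GAPDH scaling moved the median of all genes to -0.26 for TPL in NT cells, -0.07 in TAM cells, -0.50 for TAM against NT cells with DMSO and -0.25 under TPL, and upper quartile scaling to 0.31 and 0.29 for TPL. Of all genes past 0.05, 46.5% were higher with TPL in NT cells (60.9% with upper quartile and 23.7% with GAPDH scaling), 43.5% in TAM cells (61.1% with upper quartile scaling), 50.5% in TAM over NT cells with DMSO (16% with GAPDH) and 40.2% with TPL (22.7% with GAPDH). Counts of peaks moved by less than 1.5 times with a window of 1 kb or the canonical TSS alone. IFIT2 had as few as 1 count and MX1 1 to 2 counts in NT cells, which limits the precision of their differences. A lone library of a group was assumed to vary like the others.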
